A study of Mus musculus with 15 samples.

Results

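The LIM homeobox loci are the surroundings of 10 mouse genes, Lhx1, Lhx2, Lhx3, Lhx4, Lhx5, Lhx6, Lhx8, Lhx9, Isl1 and Isl2, and the intervals described here are all those that lay within 30 kb of 1 given position per gene in mouse build mm9. By this rule, 16 of the 2466 intervals in 3 lists were members, at 6 of the 10 genes. They comprised 6 of 1126 H3K27me3 intervals, 4 of 438 FLAG intervals and 6 of 902 EZH2 intervals. The lists came from mouse embryonic fibroblasts of the EED-floxed line that stably carried wild-type EZHIP from a lentivirus, with 1 chromatin immunoprecipitation library for each of the 3 antibodies. EED, a core PRC2 subunit, was floxed and not deleted in these cells. The series holds 15 libraries, and the other 12 (EED-null cells, tazemetostat, DMSO and the EZHIP M406E variant) were not analysed here. The series title concerns how EZHIP limits the spread of H3K27 methylation, and because no list from cells without EZHIP was analysed here, the values describe where the 3 signals lay and not an effect of EZHIP.

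PRC2 is the complex that methylates histone H3 at the K27 position through its catalytic subunit EZH2, and its trimethylated product H3K27me3 marks silenced developmental genes. EZHIP is a protein that inhibits PRC2, and the FLAG signal stands for it here, as EZHIP is listed in the design next to EZH2 and H3K27me3. LIM homeodomain factors pair LIM domains, which bind cofactors such as Ldb1, with a DNA-binding homeodomain, and they specify neurons, pituitary, pancreas, limb, kidney and heart progenitors. In fibroblasts such lineage regulators are typical Polycomb targets. The mouse family falls into closely related pairs, and 5 such pairs were covered: Lhx1 with Lhx5, Lhx3 with Lhx4, Lhx2 with Lhx9, Lhx6 with Lhx8, and Isl1 with Isl2. Expression was not measured, and the cell type label could not be checked against marker genes. The lists hold positions alone, so peak height, read depth and enrichment are unknown.

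Polycomb recruitment in mammals is associated with CpG-rich start sites, so the upstream sequence of the genes is shown with every CpG in capitals. Each run holds the 250 bases before a RefSeq start site in build GRCm38.p6, 5′ to 3′ on the gene's strand. Isl1 had the most CpGs and an EZH2 interval without FLAG, Lhx1 had all 3 signals, Lhx8 had all 3 signals and few CpGs, and Lhx2 had many CpGs and no interval.
Isl1, chr13:116309689-116309938, minus strand: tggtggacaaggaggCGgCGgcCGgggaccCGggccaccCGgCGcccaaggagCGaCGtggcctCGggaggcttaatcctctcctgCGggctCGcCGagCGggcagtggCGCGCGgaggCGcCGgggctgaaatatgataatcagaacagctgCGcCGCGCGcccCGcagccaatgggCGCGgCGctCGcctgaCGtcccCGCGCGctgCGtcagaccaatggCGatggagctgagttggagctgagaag
Lhx1, chr11:84525535-84525784, minus strand: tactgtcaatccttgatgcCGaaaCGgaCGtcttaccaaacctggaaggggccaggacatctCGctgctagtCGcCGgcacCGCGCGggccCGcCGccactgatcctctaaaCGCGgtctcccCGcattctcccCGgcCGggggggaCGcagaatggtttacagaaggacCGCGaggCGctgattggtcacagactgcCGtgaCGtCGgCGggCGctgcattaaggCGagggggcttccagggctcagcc
Lhx8, chr3:154330561-154330810, minus strand: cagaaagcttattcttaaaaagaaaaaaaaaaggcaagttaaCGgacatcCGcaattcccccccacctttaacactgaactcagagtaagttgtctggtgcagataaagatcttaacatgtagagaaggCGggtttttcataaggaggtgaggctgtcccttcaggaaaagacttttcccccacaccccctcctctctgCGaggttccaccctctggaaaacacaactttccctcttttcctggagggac
Lhx2, chr2:38339031-38339280, plus strand: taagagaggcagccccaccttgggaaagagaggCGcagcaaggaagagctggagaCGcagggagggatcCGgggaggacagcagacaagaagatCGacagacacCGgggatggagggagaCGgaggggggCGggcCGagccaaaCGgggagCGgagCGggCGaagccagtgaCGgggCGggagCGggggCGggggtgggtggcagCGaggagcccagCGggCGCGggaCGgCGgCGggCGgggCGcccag

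The CpG number did not sort genes with intervals from genes without. The dinucleotide CG, which reads the same on both strands, was counted in the 13 start sites of the 9 genes that matched by symbol; Lhx5 had no entry. Isl1 had 33 CpGs, a number that 4.03% of all 32851 tabulated promoters reached. Lhx1 had 26, Lhx3 had 22 and 11 at its start sites, Lhx4 had 14 and Lhx8 had 4. Among genes without an interval, Lhx2 had 25 and 24, Lhx6 had 17, 14 and 7, Isl2 had 16 and Lhx9 had 4. The medians were 18 over the 6 start sites of genes with an interval and 16 over the 7 of genes without, beside 6 over all promoters. The ranges were 4 to 33 in genes with an interval and 4 to 25 in genes without. They overlapped from 4 to 25, and only Isl1 and Lhx1 lay above that stretch. Of the 13 start sites, 11 lay above the median of all promoters. Because the intervals are in mm9 and the sequences in GRCm38, whether an interval covers a given start site was not measured.

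Of the 10 genes, 6 had H3K27me3 and EZH2 within 30 kb and 4 had no interval of any list. Lhx1, Lhx3, Lhx5 and Lhx8 had all 3 signals within the window, Lhx4 had H3K27me3 and EZH2, and so did Isl1. Each marked gene had exactly 1 EZH2 interval and 1 H3K27me3 interval. By pairs of related genes, both members were marked for Lhx1 with Lhx5 and for Lhx3 with Lhx4. A single member was marked in the pairs Lhx6 with Lhx8 (Lhx8) and Isl1 with Isl2 (Isl1), and neither was marked for Lhx2 with Lhx9. The share of all mouse genes marked in the same way was not computed, since gene annotation of mm9 was not used here, so 6 of 10 cannot be read as high or low. For the same reason the remaining relatives Lmx1a and Lmx1b and the cofactor genes were not located.

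**Figure D1:**
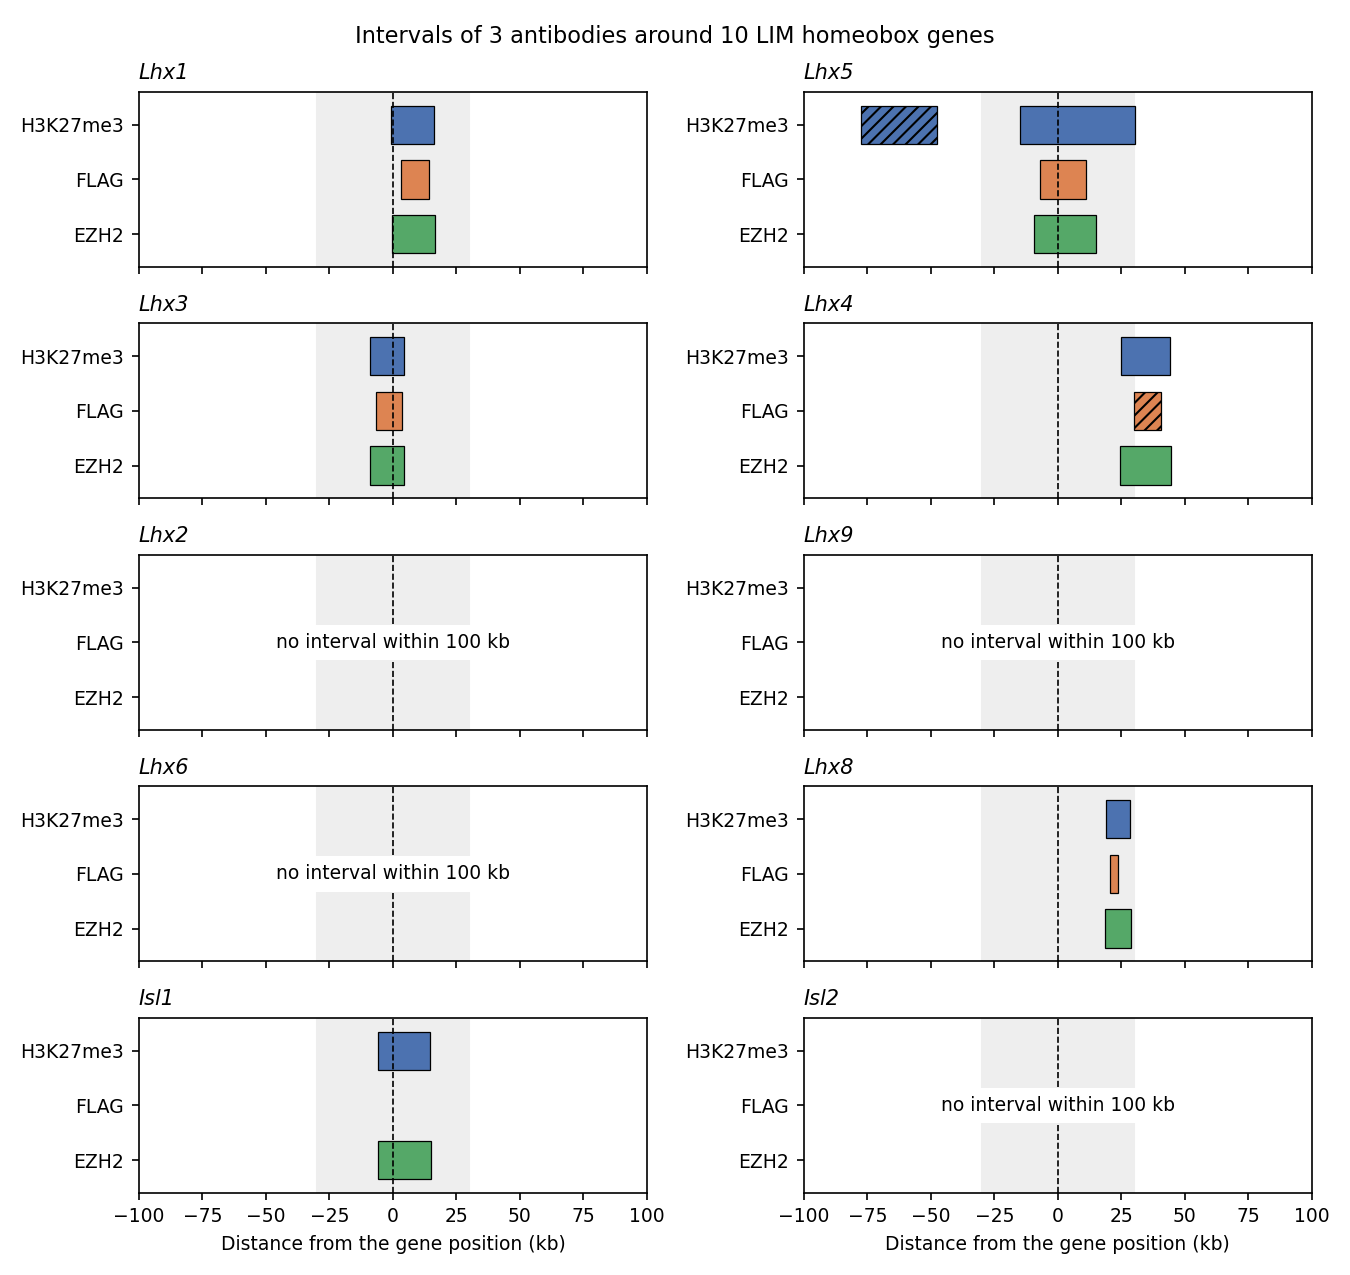
Intervals of H3K27me3, FLAG and EZH2 around each of the 10 genes, drawn against distance from the gene position in kb, with the 30 kb window in grey and intervals outside it hatched; related genes share a row. Lhx2, Lhx9, Lhx6 and Isl2 had no interval within 100 kb, the FLAG interval of Lhx4 began 201 bp past the window, and at Lhx5 H3K27me3 reached beyond EZH2 on both sides.

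The window decided the count for FLAG at Lhx4. The members closest to the limit were the H3K27me3 and EZH2 intervals of Lhx4, 25001 and 24601 bp from the position. The closest interval outside was the FLAG interval of the same locus, at 30201 bp. It lay wholly inside the Lhx4 EZH2 interval and is therefore described with it below, although it is not a member. The next one outside was an H3K27me3 interval 47601 bp from the Lhx5 position, and no other interval of any list lay within 100 kb of the 10 positions. The positions are single points given to 10 kb, so distances of this size carry that uncertainty and are not distances from a start site. Moving all positions up by 5 kb, a choice made after the data were seen, brought the Lhx4 FLAG interval in.

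The overlap of the signals at the LIM homeobox loci was near complete, with FLAG at Isl1 as the exception. All 6 EZH2 intervals overlapped H3K27me3 (100%, exact Clopper-Pearson 95% interval 54.1 to 100%), where 95.2% of the whole EZH2 list did. All 6 H3K27me3 intervals overlapped EZH2, against 71.7% of the whole H3K27me3 list. FLAG, counting the Lhx4 interval past the window, overlapped 5 of the 6 EZH2 intervals (83.3%, 35.9 to 99.6%), against 45.5% of the whole list, and 5 of the 6 H3K27me3 intervals, against 36.1%. The 4 FLAG members all overlapped EZH2 and H3K27me3, as 96.6% and 98.6% of the whole FLAG list did. The EZH2 intervals of these loci were wide, and among the 145 EZH2 intervals at least as wide as the narrowest of them, 87.6% overlapped FLAG. The 83.3% of EZH2 intervals at the LIM loci was thus close to the share in EZH2 intervals of similar width. The H3K27me3 intervals of these loci were wide too, with a median of 17899 bp against 4599 bp in the whole list. No share was computed for all H3K27me3 intervals at least as wide as the narrowest one at these loci. The contrasts with 71.7% and 36.1% are therefore not matched for width and cannot be read as a trait of these loci. With 1 library per antibody there is no replicate check, no test was made, and the intervals cover counting error only.

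The intervals at these loci were wide for their lists, apart from FLAG at Lhx8. The 6 EZH2 intervals spanned 10399 to 24599 bp with a median of 18299 bp, against a median of 5199 bp and quartiles of 3399 and 8149 bp in the whole list. Every one of them exceeded the upper quartile. The 6 H3K27me3 intervals spanned 9399 to 45399 bp with a median of 17899 bp, against 4599 bp and an upper quartile of 8949 bp in the whole list, and again all 6 exceeded that quartile. The 4 FLAG intervals measured 2999, 9999, 11399 and 17799 bp, with a median of 10699 bp, against 3999 bp in the whole list. Here Lhx8 lay below the list median and the other 3 above the upper quartile of 5999 bp. The order of EZH2 widths was Lhx5, Isl1, Lhx4, Lhx1, Lhx3 and Lhx8. Edges follow a 200 bp grid, so that Isl1 at 20999 bp and Lhx4 at 19999 bp differ by 5 grid steps. How the peak calls joined neighbouring signal is not given in the sources used here.

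**Figure D2:**
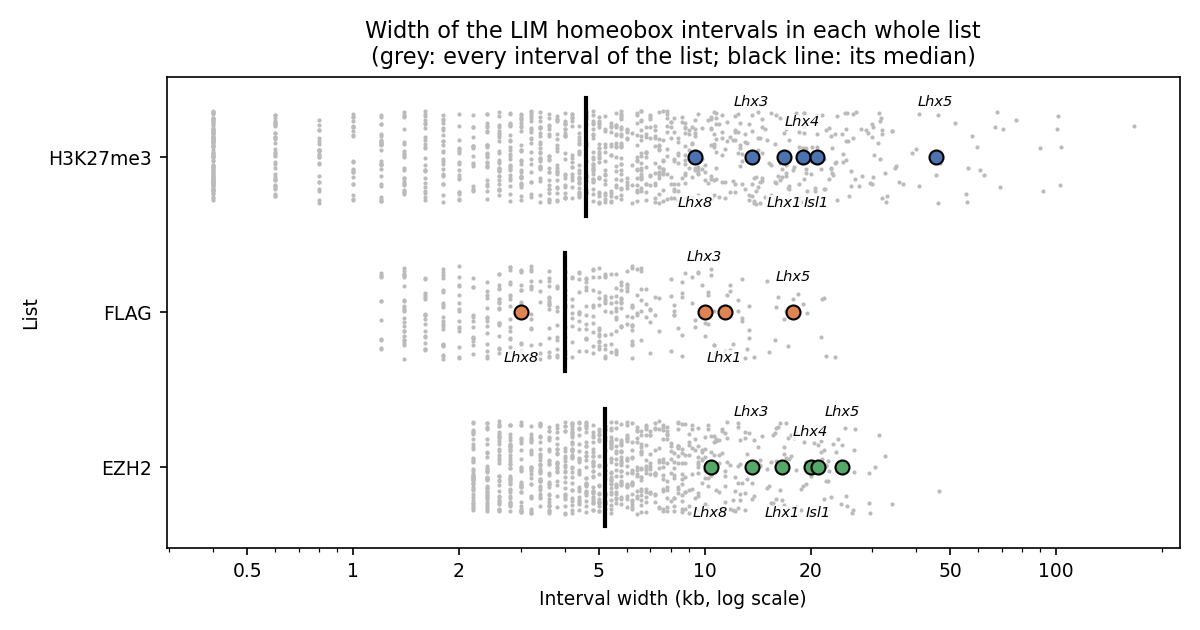
Width in kb on a log scale of each member interval (coloured, named) within the whole list of its antibody (grey points, black line at the median; vertical scatter carries no value). All EZH2 and H3K27me3 members lie right of the list medians of 5199 and 4599 bp, and the FLAG interval of Lhx8, at 2999 bp, lies left of the FLAG median of 3999 bp.

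Lhx5 and Lhx1, regulators of forebrain and of head and kidney formation, held the widest FLAG intervals among the 10 genes. At Lhx5, on chromosome 5, H3K27me3 ran from 120865001 to 120910399 (45399 bp), FLAG from 120873201 to 120890999 (17799 bp) and EZH2 from 120870601 to 120895199 (24599 bp). Only 8 of 438 FLAG intervals, 16 of 902 EZH2 intervals and 23 of 1126 H3K27me3 intervals were wider than those at Lhx5. At Lhx1, on chromosome 11, H3K27me3 ran from 84329201 to 84345999 (16799 bp), FLAG from 84333001 to 84344399 (11399 bp) and EZH2 from 84329801 to 84346399 (16599 bp). FLAG lay inside both H3K27me3 and EZH2 at each of these genes. At Lhx1 the H3K27me3 interval was shifted by 600 bp past the lower EZH2 edge and stopped 400 bp short of the upper edge. At Lhx5 it passed EZH2 by 5600 bp below and 15200 bp above.

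Lhx5 was the locus where methylation reached well beyond EZH2. Its H3K27me3 interval was 1.85 times as wide as its EZH2 interval. That ratio was reached by 17 of 764 pairs of 1 H3K27me3 and 1 EZH2 interval in the whole lists (2.23%). These pairs include narrow EZH2 intervals. Over the 117 pairs with EZH2 at least as wide as at Lhx8, the upper quartile was 1 and the highest ratio 1.91. H3K27me3 passed EZH2 by more than 5 kb at either edge in 18 of the 764 pairs (2.36%), and at both edges in 2, of which Lhx5 is 1. In all, 807 H3K27me3 intervals overlapped EZH2. Those that met more than 1 EZH2 interval are not among the pairs, so these shares leave them out. On chromosome 5, 4 of 64 pairs had such an edge (6.25%). A further H3K27me3 interval of 29999 bp, from 120802401 to 120832399, ended 32.6 kb before the Lhx5 one and overlapped neither FLAG nor EZH2. Within 1 Mb of the Lhx5 position there were 9 H3K27me3 intervals, of which 6 had no EZH2. Over the whole H3K27me3 list 71.7% overlapped EZH2. Around the other 9 genes no more than 1 H3K27me3 interval per gene lacked EZH2, but those genes had only 0 to 5 H3K27me3 intervals each. Lhx5 lies between Rbm19 and Sdsl in the RefSeq annotation of GRCm38. It also lacks a promoter entry above, so its CpG number is not part of the comparison.

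**Figure D3:**
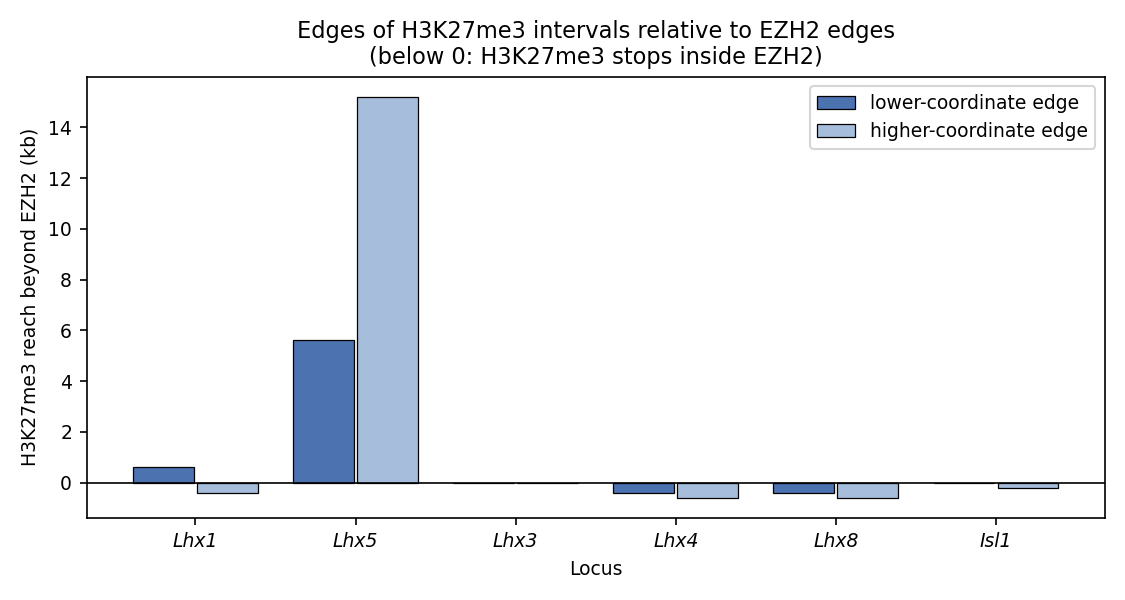
Reach of the H3K27me3 interval beyond the EZH2 interval in kb at the lower and higher coordinate edge of the 6 marked loci; values below 0 mean that H3K27me3 stopped inside EZH2, and Lhx3 has 0 at both edges. The 5600 and 15200 bp at Lhx5 stand apart from the other 10 edges, which lie between -600 and 600 bp.

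At the other 5 loci H3K27me3 and EZH2 had nearly the same edges. All 10 edges lay within 1 kb of each other, with a median H3K27me3 reach of -300 bp (range -600 to 600 bp). With Lhx5 kept, 10 of 12 edges (83.3%) did, with a median of -100 bp. Over the 764 pairs of the whole lists, 87.4% of edges did, with a median of -400 bp. The share over all 6 loci was thus close to that of the whole lists. H3K27me3 was narrower than EZH2 at Lhx4, Lhx8 and Isl1, equal at Lhx3 and wider at Lhx1. The width ratios were 0.904 at Lhx8, 0.95 at Lhx4, 0.99 at Isl1, 1 at Lhx3 and 1.01 at Lhx1. Their median with Lhx5 was 0.995, against 0.947 (quartiles 0.908 and 1) over the 117 pairs whose EZH2 interval was at least as wide as that of Lhx8. Lhx4, Isl1 and Lhx3 lay within these quartiles, Lhx8 just below and Lhx1 just above. Summed over the 6 loci H3K27me3 covered 124994 bp and EZH2 106194 bp, a ratio of 1.18. Without Lhx5 the sums were 79595 bp of H3K27me3 and 81595 bp of EZH2, a ratio of 0.975, so the excess of methylated over EZH2 length was present only with Lhx5 included.

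Lhx3 and Lhx4, which act together in pituitary and motor neuron development, were both marked by wide EZH2 intervals with FLAG inside. At Lhx3, on chromosome 2, H3K27me3 and EZH2 had identical edges, 26050801 and 26064399 (13599 bp), which 20 of the 764 pairs showed (2.62%), and 6 of the 117 wide pairs (5.13%). Its FLAG interval ran from 26053401 to 26063399 (9999 bp), 2600 bp inside the lower edge of EZH2 and 1000 bp inside the upper. At Lhx4, on chromosome 1, H3K27me3 ran from 157575001 to 157593999 (18999 bp) and EZH2 from 157574601 to 157594599 (19999 bp). The FLAG interval just outside the window ran from 157580201 to 157590799 (10599 bp) and left 5600 and 3800 bp of EZH2 uncovered on its sides. FLAG took 73.5% of the EZH2 width at Lhx3 and 53% at Lhx4. In the GRCm38 annotation the neighbours of the pair are themselves related by name, Qsox2 beside Lhx3 and Qsox1 beside Lhx4.

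Lhx8, a regulator of basal forebrain cholinergic neurons and tooth development, had the narrowest intervals of the marked genes and the smallest FLAG part. On chromosome 3, H3K27me3 ran from 153989001 to 153998399 (9399 bp), FLAG from 153990601 to 153993599 (2999 bp) and EZH2 from 153988601 to 153998999 (10399 bp). FLAG took 28.8% of the EZH2 width, and 19 of the 116 wide pairs of FLAG and EZH2 (16.4%) had a share at or below this. The FLAG interval was off centre, 2000 bp from the lower and 5400 bp from the upper EZH2 edge. Its midpoint lay 1700 bp below that of EZH2, a distance that 30 of the 116 wide pairs reached. Its relative Lhx6, which directs cortical interneurons, had no interval. The closest H3K27me3 interval to Lhx6 was 1.02 Mb away and 399 bp wide, and the closest FLAG and EZH2 intervals were 2.62 Mb away.

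Where FLAG was present at the LIM loci it lay inside EZH2, as it did in all 399 pairs of 1 FLAG and 1 EZH2 interval. The FLAG share of EZH2 width was 28.8% at Lhx8, 53% at Lhx4, 68.7% at Lhx1, 72.4% at Lhx5 and 73.5% at Lhx3. The median ratio was 0.687 over these 5 loci, against 0.61 (quartiles 0.408 and 0.73) over the 116 pairs with an EZH2 interval at least as wide as that of Lhx8. Lhx3 lay just above the upper quartile of the wide pairs and Lhx8 below the lower one. EZH2 extended past FLAG by 1000 to 5600 bp at the 10 edges, with a median of 2900 bp, against 2600 bp over 232 edges of the wide pairs. The 5 loci were thus spread over the range seen at wide EZH2 intervals.

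**Figure D4:**
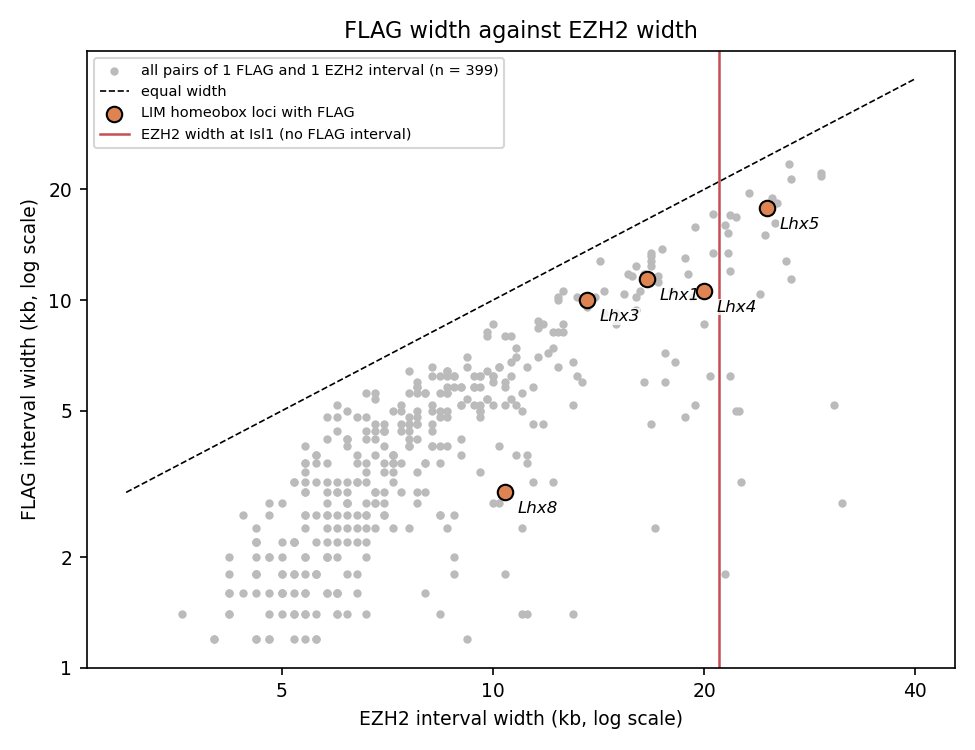
FLAG interval width against EZH2 interval width, both in kb on log scales, for all 399 pairs of 1 FLAG and 1 EZH2 interval (grey) and the 5 LIM loci with FLAG (orange); the dashed line marks equal width and the red line the EZH2 width at Isl1, which had no FLAG. Lhx8 lies low at 2999 bp of FLAG. Lhx1, Lhx3, Lhx4 and Lhx5, whose EZH2 intervals are wider than that of Lhx8, lie in the upper part of the pairs.

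Isl1, which is required in motor neurons, pancreatic islets and cardiac progenitors, had wide EZH2 and H3K27me3 without FLAG. On chromosome 13, H3K27me3 ran from 117084001 to 117104799 (20799 bp) and EZH2 from 117084001 to 117104999 (20999 bp), so the signals shared their lower edge and ended 200 bp apart. The nearest FLAG interval was 3.31 Mb from the Isl1 position. Among the 36 EZH2 intervals at least as wide as that at Isl1, 91.7% overlapped FLAG and 3 did not, of which Isl1 is 1. Of all 492 EZH2 intervals without FLAG, 2 were wider, on chromosome 9 from 91245601 to 91291999 (46399 bp) and on chromosome 1 from 63292201 to 63321799 (29599 bp). Of all 902 EZH2 intervals, 410 (45.5%) overlapped FLAG, among them those of Lhx1, Lhx3, Lhx4, Lhx5 and Lhx8. Isl1 alone fell among the 449 of 902 that overlapped H3K27me3 and not FLAG. None of the 6 H3K27me3 members was among the 313 of all 1126 H3K27me3 intervals without EZH2 or FLAG. With 6 members this absence cannot be read as a trait of these loci. It also depends on the window, as the H3K27me3 interval 47601 bp from the Lhx5 position overlapped neither EZH2 nor FLAG. Because the FLAG list has no scores, a FLAG signal at Isl1 below the calling threshold cannot be told apart from none.

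The 4 genes without an interval lay 360 kb or more from the nearest interval of any list. Lhx2, a regulator of eye, forebrain and hair follicle development, had its nearest intervals 361 kb (H3K27me3), 362 kb (FLAG) and 360 kb (EZH2) away, on chromosome 2 from 38560201 to 38570799 for EZH2. Lhx9, needed for the gonads, had H3K27me3, FLAG and EZH2 at 1.87 Mb. For Isl2, a motor neuron and retinal ganglion cell factor, H3K27me3 and EZH2 lay at 514 kb and FLAG at 1.25 Mb. Lhx6 and Lhx9 had no interval of any list within 1 Mb. Absence from the lists does not show absence of H3K27me3, since these are called intervals of unknown depth. The H3K27me3 list is also named as residual H3K27me3 and comes from cells with EZHIP. It therefore does not show whether these genes are marked in cells without EZHIP.

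None of the marked loci had a second EZH2 or FLAG interval within 100 kb. The next EZH2 interval lay 248 to 614 kb from those at the 6 loci, with a median of 408 kb, against a median of 470 kb (quartiles 112 and 1470 kb) over the whole list. For FLAG the distances of the 4 members were 269 to 3240 kb (median 1370 kb), against a median of 771 kb (quartiles 148 and 2510 kb). For H3K27me3 they were 32.6 to 614 kb (median 264 kb), against 408 kb (quartiles 112 and 1270 kb). The spacing of the EZH2 members thus stayed within the quartiles of their list. For FLAG, Lhx8 lay above the upper quartile, and for H3K27me3, Lhx5 and Lhx1 lay below the lower one. Within 1 Mb, Lhx4 had 5 H3K27me3, 1 FLAG and 4 EZH2 intervals and Lhx3 had 4, 3 and 4, whereas Isl1 had 2 H3K27me3, 0 FLAG and 2 EZH2 intervals.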

How the data were processed

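Chromatin of mouse embryonic fibroblasts was fixed, cut into mono-nucleosomes by micrococcal nuclease and precipitated with antibodies to EZH2, FLAG or H3K27me3, per the labels' protocols. Bowtie 1.0.0, deepTools and build mm9 are named in the submitters' processing notes. Not given in the sources used here are the peak caller, its thresholds, a control library and depth. The deposited lists give interval start and end in bp and no score, 1 list per library, on a 200 bp grid. Starts were moved from 0-based to 1-based.

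Members were intervals whose nearest edge lay within 30 kb of a gene position. All 10 genes of the rule are named. The members and lists were chosen with earlier results of these data known. Overlap meant at least 1 shared bp. Pairs were intervals of 2 lists that overlapped each other and no others. Shares carry exact Clopper-Pearson 95% intervals (scipy 1.17.1). No test was made, as each antibody has 1 library. The functions were tested on simulated intervals (Python 3.11.15, pandas 2.3.3). Promoter sequences and neighbouring genes came from RefSeq tables of GRCm38.p6, matched by symbol for 9 and 10 of the 10 genes. Coordinates were not converted between builds.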

Additional observations from a re-analysis of the deposited data

How the results depend on the processing

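The 11 results were recomputed under 8 alternatives fixed earlier and 2 added after the data were seen (gene positions moved 5 kb up or down), which gave 104 values. The stricter overlap of 50% of the narrower interval was applied to the 5 overlap shares only. The number of loci with all 3 signals was 3 with a 10 kb window and 5 with 60 kb, 100 kb or positions moved up, against 4. No share left its 95% interval, but with 4 to 6 members per list these intervals were wide (such as 35.9 to 99.6%). Staying inside them therefore says little. At 60 and 100 kb, 85.7% of H3K27me3 intervals overlapped EZH2 and 71.4% overlapped FLAG. At 10 kb, 75% of EZH2 intervals overlapped FLAG. Widths and ratios have no replicate spread, so all 18 that moved are given.

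With a 10 kb window, which leaves out Lhx4 and Lhx8, the median width was 18799 bp for H3K27me3, 11399 bp for FLAG and 18799 bp for EZH2, and the median covered length relative to EZH2 was 1.01 for H3K27me3 and 0.705 for FLAG (0.488 in the 30 kb window, with Lhx4 and Isl1 at 0). Windows of 60 and 100 kb each gave 18999 bp for H3K27me3, 10599 bp for FLAG and a FLAG ratio of 0.608, by adding FLAG at Lhx4 and H3K27me3 near Lhx5. Distances to midpoints, which drop Lhx4, gave 16799 bp for H3K27me3, 16599 bp for EZH2, an H3K27me3 ratio of 1.00 and a FLAG ratio of 0.687. Positions moved up gave 10599 bp for FLAG and a FLAG ratio of 0.608. Positions moved down gave 16799 bp for H3K27me3, as H3K27me3 at Lhx4 then fell outside. No paired analysis was possible because each group has 1 library. Depth is unknown, so signal below the calling threshold cannot be limited.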
